A study of Rattus norvegicus with 6 samples.

Results

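The transcripts described here encode enzymes that act on foreign or reactive compounds by hydrolysis, reduction or oxidation, outside the cytochrome P450 family: Ephx1, Ces2c, Por, Akr7a3, Akr1b8, Cbr1, Cbr3, Aldh1a1, Aldh1a7 and Aox1. The gene list was drawn up with earlier results of these data known. Probes were chosen by name, as those whose accession the RefSeq gene table (assembly GRCr8) assigns to one of these genes. That match found 14 of the 61537 non-control probes and 9 of the 10 genes, and Aldh1a7 is named only. The probes numbered 3 for Cbr1, 2 each for Cbr3, Aldh1a1 and Aox1, and 1 for each of the other 5 genes. All 14 were well above background on all 6 arrays, so the detection filter removed none of them.

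RNA came from the renal cortex of male Sprague-Dawley (Crl:CD(SD)) rats, bought at 5 weeks of age. A control group of 3 rats received corn oil, the vehicle, and a second group of 3 received monuron, a phenylurea herbicide, at 200 mg/kg/day, each for 4 weeks. Each rat's RNA was read on its own Agilent array, in 1 colour with the dye Cy3. The design asks which transcripts of the cortex differ after repeated dosing with the herbicide.

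As background, epoxides, aldehydes, ketones and quinones are reactive products of drug oxidation and of lipid peroxidation. Epoxide hydrolases open epoxides with water, aldo-keto and carbonyl reductases turn carbonyls into alcohols with NADPH, and aldehyde dehydrogenases and aldehyde oxidase turn aldehydes into acids. The kidney proximal tubule, which makes up much of the cortex, takes up organic compounds from blood and expresses many of these enzymes. Several of their genes are known targets of NRF2, a transcription factor that binds antioxidant response elements, and of receptors for foreign compounds.

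The start windows of 3 genes are printed because Ephx1, the member called in these data, is also the one member whose windows hold the letters of an antioxidant response element core. Whether the motif has a part in the call was not tested. Each window runs from 250 bases before to 50 bases after a gene start annotated in RefSeq (GRCr8), read 5′ to 3′ on the gene's strand. The 9 genes have 10 windows, since RefSeq lists 2 starts for Ephx1 that lie 12735 bases apart. Printed are both windows of Ephx1 (chr13:95263068-95263367 for start 1, the downstream one, and chr13:95275803-95276102 for start 2, both on the minus strand). Beside them stand those of Akr7a3 (chr5:156876471-156876770, plus strand) and Akr1b8 (chr4:63964171-63964470, plus strand), the other members whose groups stood farthest apart. Capitals mark matches to TGACNNNGC, the antioxidant response element core, and to TGANTCA, the AP-1 site, on either strand.
Ephx1 start 1: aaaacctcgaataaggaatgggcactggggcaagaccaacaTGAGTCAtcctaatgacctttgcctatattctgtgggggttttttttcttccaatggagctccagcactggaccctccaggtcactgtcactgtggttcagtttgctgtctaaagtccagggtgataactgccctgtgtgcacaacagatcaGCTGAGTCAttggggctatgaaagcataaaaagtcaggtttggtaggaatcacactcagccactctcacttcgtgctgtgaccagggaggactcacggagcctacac
Ephx1 start 2: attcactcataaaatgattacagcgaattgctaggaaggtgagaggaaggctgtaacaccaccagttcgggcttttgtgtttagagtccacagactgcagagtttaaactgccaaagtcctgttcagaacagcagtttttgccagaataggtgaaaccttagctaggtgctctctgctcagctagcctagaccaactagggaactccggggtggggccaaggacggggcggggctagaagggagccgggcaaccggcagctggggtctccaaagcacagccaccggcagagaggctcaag
Akr7a3: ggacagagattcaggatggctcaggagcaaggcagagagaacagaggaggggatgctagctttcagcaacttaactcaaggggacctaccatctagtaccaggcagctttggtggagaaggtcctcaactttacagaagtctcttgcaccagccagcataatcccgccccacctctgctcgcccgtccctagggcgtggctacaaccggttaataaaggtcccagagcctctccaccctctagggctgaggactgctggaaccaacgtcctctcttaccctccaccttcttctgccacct
Akr1b8: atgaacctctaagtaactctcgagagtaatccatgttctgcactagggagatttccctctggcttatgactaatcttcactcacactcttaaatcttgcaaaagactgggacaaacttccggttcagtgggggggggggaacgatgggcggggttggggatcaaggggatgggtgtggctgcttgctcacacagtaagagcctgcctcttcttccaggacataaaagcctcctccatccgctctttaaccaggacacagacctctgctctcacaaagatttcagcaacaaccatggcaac

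In Ephx1 start 1 the element core was found on the opposite strand, with its first base 57 bases before the start, and an AP-1 match overlaps it from 55 bases before the start. A second AP-1 match begins 209 bases before that start. The element core was present in 12.1% of the 33465 RefSeq windows of 300 bases and in 1 of the 10 member windows, so the members lay near the share of all windows. The AP-1 site was present in 7.33% of all windows and in 2 of the 10. Among the members the AP-1 letters were found in Ephx1 and Aox1, and the printed windows of Ephx1 start 2, Akr7a3 and Akr1b8 hold neither motif. GCGTG, the core of the xenobiotic response element, was present in 29.7% of all windows and in those of Por, Akr7a3 and Cbr1. AGGTCA, a nuclear receptor half-site, was present in 16.2% of all windows and in those of Ephx1 and Por. These matches describe letters in the windows and no binding was measured.

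**Figure D1:**
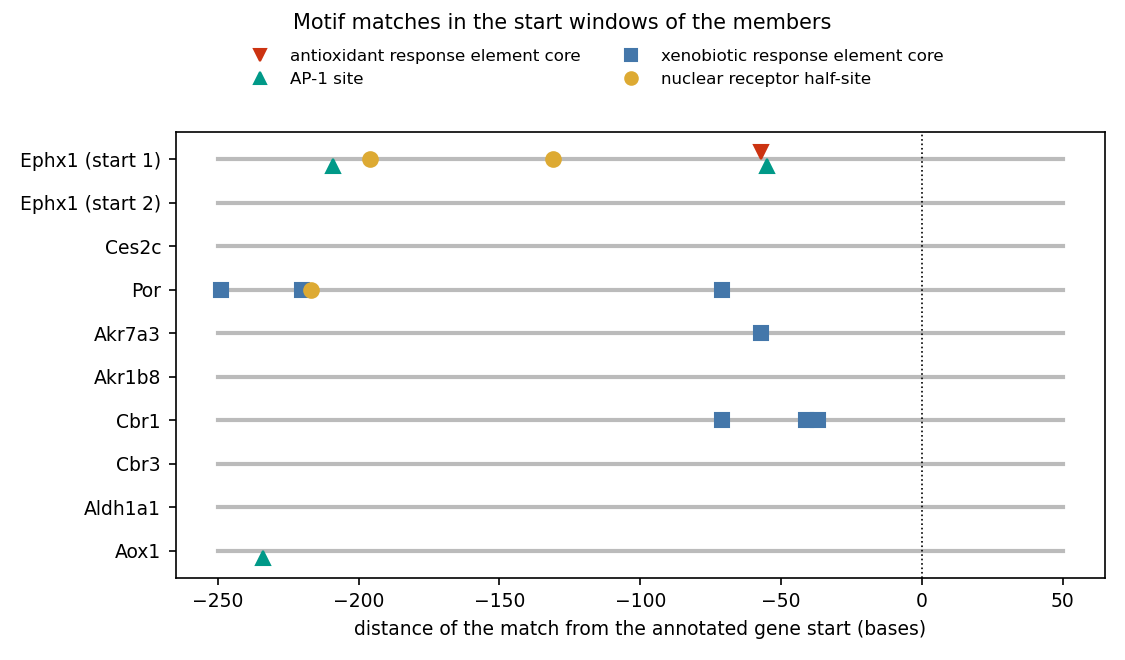
Motif matches in the 10 start windows of the 9 member genes, with the distance in bases of each match's first base from the annotated start on the horizontal axis and a grey line for each window. The antioxidant response element core appears once, in Ephx1 start 1 at 57 bases before the start, where it overlaps an AP-1 match.

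Levels are given as the processed signal divided by the array's 75th percentile over non-control probes, and differences as log2 fold changes of monuron over corn oil with their standard errors. For each gene the probe with the highest mean was tested across all 30229 genes with limma, two-sided, and adjusted by the Benjamini-Hochberg method. Of these 12072 had a gene symbol. The rest, named by accession or by probe, are counted as genes in every share of all genes. A gene is called at an adjusted p under 0.05. Of the 9 measured members 1 was called higher, Ephx1, where 0.949% of all tested genes were called higher. By limma 0 were called lower, against 0.414% of all genes, and 0 were lower at an unadjusted p under 0.05, against 6.73% of all genes. An unadjusted p under 0.05 with a higher value was reached by 5 of the 9, against 10.9% of all genes. Those 5 (Ephx1, Ces2c, Akr7a3, Akr1b8 and Aldh1a1) were also the ones whose monuron arrays all lay above all corn oil arrays, which held for 15.5% of all genes. In 0 of the 9 did all monuron arrays lie below all corn oil arrays, against 10.3% of all genes. The members were chosen with earlier results of these data known, so these shares describe them and test nothing about the set. In the fit over every probe, 1 of the 14 member probes was called higher and 0 lower, where 0.832% and 0.391% of all probes were. The median log2 fold change was 0.37 over the members and 0.02 over all genes. Scaled on spike-in controls, which moved the median of all genes to -0.49, the groups stood apart upward in 2 members, Ephx1 and Akr1b8, and downward in 2, against 1.13% and 72.1% of all genes. Under that scaling Ces2c, Cbr1, Cbr3 and Aldh1a1 had log2 fold changes below 0.

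**Figure D2:**
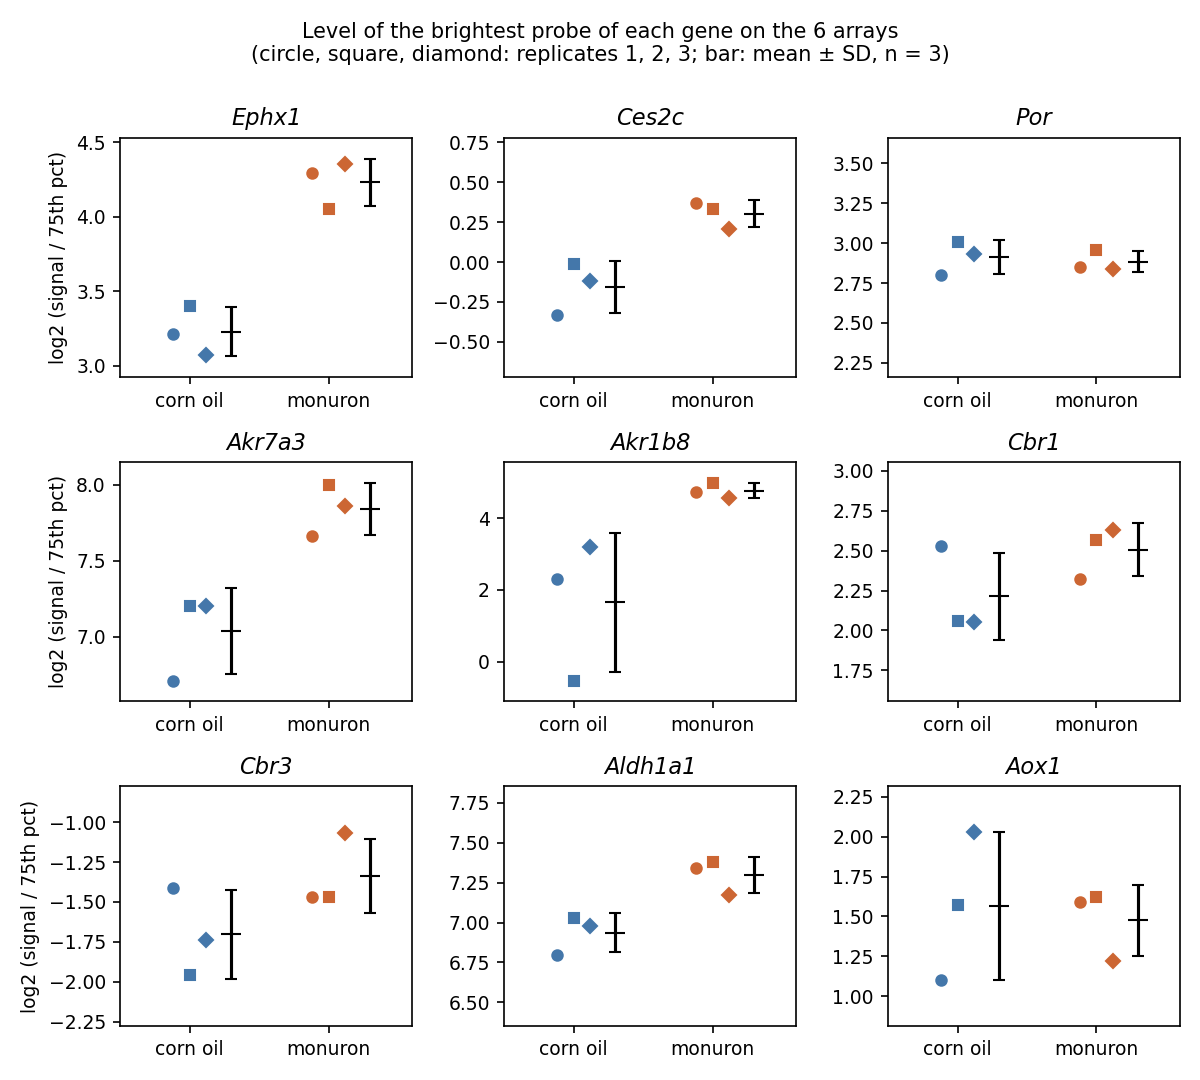
Level of the brightest probe of each of the 9 genes on each array, as log2 of the signal over the array's 75th percentile, with corn oil in blue, monuron in orange and the mean ± SD (n = 3) as a black bar. Each panel has its own vertical range. The groups stand apart in Ephx1, Ces2c, Akr7a3, Akr1b8 and Aldh1a1 and overlap in Por, Cbr1, Cbr3 and Aox1, and the lowest corn oil array of Akr1b8 lies far below the rest.

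Between 60.9% and 70.4% of probes were well above background per array. Each group had its own slide with its own scan day (2 slides, 0 shared), so no value here can separate the treatment from either, and they cannot be told apart. Markers of other tissues and cells moved with the arrays too. The summed level of 22 measured hepatocyte markers ranged from 101 to 144 on corn oil arrays and from 108 to 159 on monuron arrays. Of these markers 18 were well above background on all 6. Much of the sum was Cyp2e1, at 71.7 to 91.1 with corn oil and 67.5 to 82 with monuron. Alb ranged from 1.09 to 6.34 with corn oil and from 4.11 to 15.3 with monuron. A log2 fold change above 0 was seen in 19 of the 22 and below 0 in 3 (median 0.55). The markers outside the 18 all passed the detection filter through their monuron arrays alone, with log2 fold changes from 1.12 to 1.91. Their values above 0 thus carry little weight in the count and the median. Limma called 0 of the 22 hepatocyte markers. A score of these markers was highest on monuron replicate 1 (1.15) and corn oil replicate 3 (0.55), and lay between -0.82 and 0.05 on the others. The summed level of 11 red cell markers was 855 to 1203 with corn oil and 2088 to 2339 with monuron. Of these 9 were well above background on all 6. Limma called 6 of the 11 higher and 0 lower, against 0.949% and 0.414% of all genes. Their median log2 fold change was 1.31. The red cell markers outside the 9 (1.43 and 1.65) also passed the filter through their monuron arrays alone, so they carry little weight in that median. As a check of the labelled tissue, of 12 genes that mark the early proximal tubule (segments S1 and S2) all 12 were well above background on all arrays, with sums of 1700 to 1859 with corn oil and 1494 to 1638 with monuron. In whole cortex, fewer cells of a type and less RNA per cell cannot be told apart.

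Ephx1 encodes microsomal epoxide hydrolase, which adds water to epoxides to give dihydrodiols. Its signal over the 75th percentile was 9.26, 10.5 and 8.4 in corn oil replicates 1 to 3 and 19.6, 16.5 and 20.4 in monuron replicates 1 to 3. The lowest monuron array was thus well clear of the highest corn oil array. Ephx1 was 2.00-fold higher with monuron (95% interval 1.62 to 2.47, log2 fold change 1.00 ± 0.12, adjusted p = 0.0313 in limma). The call was lost when any 1 of the 6 arrays was left out, with adjusted p between 0.0643 and 0.121, while the log2 fold change stayed between 0.92 and 1.09. Leaving out corn oil replicate 3 and monuron replicate 1, the most liver-rich array of each group, gave 0.89 ± 0.15 (adjusted p = 0.228), and with the hepatocyte score as a covariate 1.06 ± 0.15 (adjusted p = 0.0886). Of these liver-rich arrays, corn oil replicate 3 had the lowest Ephx1 signal of its group, and monuron replicate 1 lay between the other monuron arrays. These are values of single arrays, and whether liver or red cell transcripts had a part in the difference was not tested.

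The other measured enzymes of epoxide hydrolysis were not called. Of 5 measured genes of that list 1 was called higher, Ephx1 itself, and 0 lower (0.949% and 0.414% of all genes). The median log2 fold change of the list was 0.05. Ephx2, the soluble epoxide hydrolase that acts on fatty acid epoxides, had a signal over the 75th percentile of 6.78, 3.32 and 5.5 with corn oil and 5.44, 3.73 and 0.294 with monuron. A single array, monuron replicate 3, was low, and the other 2 monuron arrays lay within the corn oil range. Its log2 fold change was -1.46 ± 1.12 (adjusted p = 0.55). The change of Ephx1 exceeded that of Ephx2 by 2.46 ± 1.43 on the log2 scale (exact permutation p = 0.1, the smallest that 3 arrays against 3 allow). Much of the size of this difference came from that array, since without monuron replicate 3 it was 1.09. Rnpep, an aminopeptidase related to leukotriene A4 hydrolase, had a log2 fold change of 0.16 ± 0.09, and Ephx4, a further member of the hydrolase family, of -0.23 ± 0.14.

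Of the 4 members that reduce carbonyls, Akr7a3 and Akr1b8 of the aldo-keto reductase family had larger differences than Cbr1 and Cbr3. Akr7a3 encodes aflatoxin aldehyde reductase, which converts the dialdehyde of aflatoxin to alcohols. Its signal over the 75th percentile was 105, 147 and 147 with corn oil and 202, 256 and 232 with monuron, so each monuron array exceeded each corn oil array. The log2 fold change was 0.80 ± 0.17 (1.75-fold, 95% interval 1.31 to 2.32), which did not pass the threshold (adjusted p = 0.097, and 0.0537 to 0.249 over 22 other settings). Akr7a2, its closest measured relative, had a signal of 70.6, 69.5 and 73 with corn oil and 61.6, 62.8 and 63.7 with monuron. All its monuron arrays lay below its corn oil arrays, and it was not called either (-0.18 ± 0.06, adjusted p = 0.211). The log2 fold changes of the 2 genes differed by 0.99 ± 0.18 (exact permutation p = 0.1, or 0.2 adjusted over the 6 pairs of relatives compared).

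Akr1b8 encodes an aldose reductase-like enzyme that reduces aldehydes formed from lipids. Its signal over the 75th percentile was 4.96, 0.694 and 9.07 in corn oil replicates 1 to 3 and 26.6, 31.6 and 23.8 in monuron replicates 1 to 3. The monuron arrays lay close together above all corn oil arrays, whereas the corn oil arrays were far apart, with replicate 2 the lowest. On the log2 scale the SD was 1.94 with corn oil and 0.21 with monuron, and the corn oil SD was the largest of any member probe in either group. The log2 fold change was 3.11 ± 0.93 (8.62-fold, 95% interval 1.75 to 42.3), and Akr1b8 was not called (adjusted p = 0.184). Without corn oil replicate 2 it was 2.02 ± 0.29 (adjusted p = 0.097). Scaled on spike-in controls Akr1b8 was called, with a smaller change than in the main fit (2.59 ± 0.90, adjusted p = 0.0402). Under that scaling 22035 of the 30229 genes had an unadjusted p under 0.05, against 5320 in the main fit. The adjustment is more lenient in that case, so this call does not mark stronger evidence for Akr1b8. With the hepatocyte score as a covariate the log2 fold change of Akr1b8 was 2.43 ± 1.01 (adjusted p = 0.348).

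Its relative Akr1b10, of the same subfamily, showed the same low array, with signals of 3.62, 0.247 and 3.89 with corn oil and 3.26, 6.16 and 5.68 with monuron. The groups of Akr1b10 overlapped, and it was not called (1.68 ± 1.11, adjusted p = 0.485). Probe sequences were not used here, so whether the probes of these related genes share targets was not tested. Akr1b1, the aldose reductase of the sorbitol pathway, had a log2 fold change of 0.08 ± 0.23 on its brighter probe, with overlapping groups. The change of Akr1b8 exceeded that of Akr1b1 by 3.03 ± 1.07 (exact permutation p = 0.1, the smallest possible), and by 2.01 when corn oil replicate 2 was left out.

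Of 15 measured aldo-keto reductases 1 was called higher and 0 lower, with a median log2 fold change of 0.60 against 0.02 over all genes (0.08 against -0.49 with spike-in scaling). Of all genes 0.949% were called higher and 0.414% lower. At an unadjusted p under 0.05, 6 aldo-keto reductases were higher and 2 lower, against 10.9% and 6.73% of all genes. The called gene was Akr1c13, of the subfamily that reduces steroid and prostaglandin ketones. Its brighter probe had signals of 5.1, 5.09 and 4.76 with corn oil and 9.65, 7.48 and 10.2 with monuron (1.81-fold, adjusted p = 0.0495). That call was marginal: it was lost under 15 of the 22 other settings, among them leaving out any 1 array except monuron replicate 2 (adjusted p 0.129 to 0.148 in those 5). On the second probe the groups of Akr1c13 overlapped. Akr1c15 had a log2 fold change of 0.98 ± 0.23 and Akr1c12l1 of 1.02 ± 0.31, and neither was called. Kcnab1, a potassium channel subunit with the aldo-keto reductase fold, stood at -0.73 ± 0.20 (adjusted p = 0.161), and Akr1a1, the aldehyde reductase, at 0.00 ± 0.09.

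Cbr1 and Cbr3 encode carbonyl reductases of the short-chain dehydrogenase family, of which Cbr1 reduces quinones and prostaglandins. The brightest Cbr1 probe had signals of 5.79, 4.18 and 4.13 with corn oil and 4.99, 5.93 and 6.18 with monuron. Corn oil replicate 1 lay among the monuron arrays, and the log2 fold change was 0.29 ± 0.16 (adjusted p = 0.414). On the other 2 probes of Cbr1 replicate 1 was also the highest corn oil array, with log2 fold changes of 0.23 ± 0.17 and 0.17 ± 0.12.

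Cbr3 was measured at 0.377, 0.257 and 0.299 with corn oil and 0.362, 0.362 and 0.476 with monuron on its brighter probe. Again corn oil replicate 1 was the highest of its group and overlapped monuron. The log2 fold changes of the 2 Cbr3 probes were 0.37 ± 0.18 and 0.41 ± 0.21, and neither was called (adjusted p = 0.358 and 0.367 in the fit over all probes). The changes of Cbr1 and Cbr3 differed by -0.08 ± 0.12 (exact permutation p = 0.7), and by -0.17 to -0.01 with 1 array left out.

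In the wider list of 17 carbonyl and short-chain reductases limma called 0, with a median of 0.04. At an unadjusted p under 0.05, 2 were higher and 0 lower, against 10.9% and 6.73% of all genes. Those 2 were Dhrs11 (0.37 ± 0.07, adjusted p = 0.09) and Rdh11, a retinal reductase (0.15 ± 0.06, adjusted p = 0.276). With spike-in scaling the median was -0.48, where that of all genes was -0.49. The list as a whole thus sat close to the median of all genes.

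**Figure D3:**
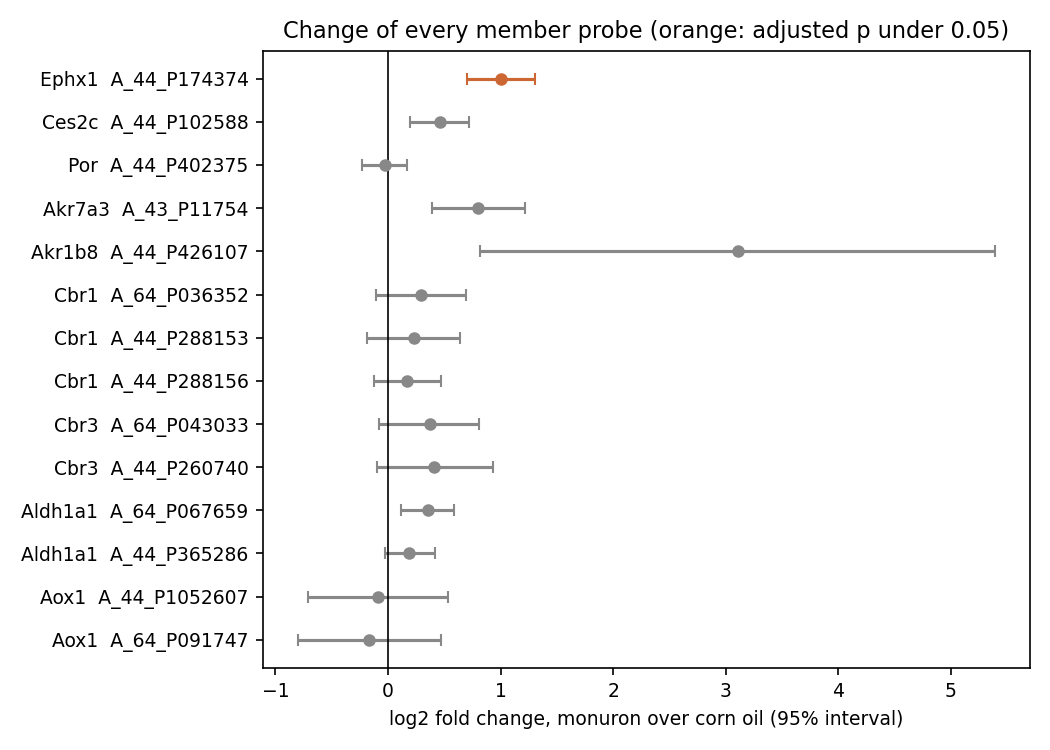
Log2 fold change of monuron over corn oil for each of the 14 member probes, with its 95% interval from the limma fit over all 41125 probes. The interval of Akr1b8 is by far the widest, from 0.82 to 5.39, and the probe of Ephx1, in orange, is the one with an adjusted p under 0.05.

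Aldh1a1 encodes a cytosolic aldehyde dehydrogenase that makes retinoic acid from retinal and also oxidises aldehydes of lipid peroxidation. Its brighter probe had signals of 112, 131 and 127 with corn oil and 162, 167 and 144 with monuron. All monuron arrays lay above all corn oil arrays, by a log2 fold change of 0.36 ± 0.10 (1.28-fold, 95% interval 1.09 to 1.51), and the gene was not called (adjusted p = 0.152). The second probe had signals of 27.7, 33.8 and 30.5 with corn oil and 35.8, 35.2 and 33.8 with monuron. There the lowest monuron array met the highest corn oil array, with a log2 fold change of 0.19 ± 0.09.

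Of 17 measured aldehyde dehydrogenases 1 was called higher, Aldh1l1, and 0 lower (0.949% and 0.414% of all genes), with a median of 0.02. Aldh1l1, the cytosolic 10-formyltetrahydrofolate dehydrogenase of folate metabolism, had signals of 17.9, 19 and 20.3 with corn oil and 29, 30.4 and 30.1 with monuron. It was 1.57-fold higher (0.65 ± 0.07, adjusted p = 0.0242), with both groups tight. With spike-in scaling it stood at 0.13 (adjusted p = 0.297), and 11 of the 22 other settings ended the call. Like that of Ephx1, its call was lost when any 1 array was left out (adjusted p 0.0529 to 0.114). Aldh2, the mitochondrial acetaldehyde dehydrogenase, lay the other way, at 72.4, 74.4 and 78.3 with corn oil and 56.8, 56.7 and 58.7 with monuron. Its groups did not overlap, and it was not called (-0.39 ± 0.06, adjusted p = 0.0603). Aldh1l2, the mitochondrial counterpart of Aldh1l1, stood at 0.68 ± 0.16 and Aldh7a1, of lysine breakdown, at -0.29 ± 0.09, and neither was called.

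Aox1 encodes aldehyde oxidase, a molybdenum enzyme that oxidises aldehydes and nitrogen rings. Its brighter probe had signals of 2.14, 2.97 and 4.08 with corn oil and 3.01, 3.07 and 2.33 with monuron, so all monuron arrays lay within the corn oil range. The log2 fold changes of its 2 probes were -0.09 ± 0.25 and -0.17 ± 0.26. Corn oil replicate 3, high in liver transcripts, was the highest Aox1 array on both probes, and without that array the log2 fold change was 0.14 ± 0.20. With the hepatocyte score as a covariate it was -0.34 ± 0.22 (adjusted p = 0.531). The 95% interval of the main value, -0.71 to 0.53, spans both directions.

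Of 9 measured molybdenum enzymes and cofactor genes limma called 0, with a median of -0.09. At an unadjusted p under 0.05, 0 were higher and 2 lower, against 10.9% and 6.73% of all genes. The 2 were Gphn, gephyrin, which inserts molybdenum into the cofactor (-0.44 ± 0.09, adjusted p = 0.0918), and Aox2, a further aldehyde oxidase (-0.30 ± 0.09, adjusted p = 0.175). Mtarc1, a mitochondrial molybdenum reductase, stood at -0.55 ± 0.26 (adjusted p = 0.347). Xdh, xanthine oxidoreductase, stood at 0.09 ± 0.09. The changes of Aox1 and Xdh differed by -0.18 ± 0.22 (exact permutation p = 0.4).

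Ces2c encodes a carboxylesterase, which hydrolyses ester and amide bonds of drugs and lipids. Its signals were 0.793, 0.99 and 0.919 with corn oil and 1.3, 1.26 and 1.16 with monuron. The groups stood apart by a small amount, with a log2 fold change of 0.46 ± 0.10 (1.38-fold, 95% interval 1.15 to 1.64), and the gene was not called (adjusted p = 0.111). It was called after normexp background correction with quantile normalization (0.52, adjusted p = 0.0255). Of 16 measured carboxylesterases and related esterases limma called 0, with a median of 0.14. At an unadjusted p under 0.05, 4 were higher and 1 lower, against 10.9% and 6.73% of all genes. Ces2j (0.93 ± 0.21), among those 4, was detected over background on 1 of 3 corn oil arrays. It passed the filter through its monuron arrays alone, as did Ces1a (0.68 ± 0.32) and Pon1 (0.16 ± 0.91). Their values above 0 thus carry little weight in the count and the median. Ces2g lay the other way (-0.24 ± 0.06). Ces1c had signals of 0.11, 0.0699 and 0.271 with corn oil and 1.2, 0.386 and 0.385 with monuron, in both groups highest on the array with the most liver transcripts.

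Por encodes NADPH-cytochrome P450 oxidoreductase, which passes electrons to the microsomal cytochromes P450 and to heme oxygenase. Its signals were 6.94, 8.03 and 7.62 with corn oil and 7.2, 7.79 and 7.16 with monuron, with the groups fully mixed. The log2 fold change was -0.03 ± 0.08, and its 95% interval, -0.23 to 0.17, was the narrowest of the 9 genes. Of 14 measured genes of the reductase and microsomal electron transfer list limma called 0, with a median of 0.05. At an unadjusted p under 0.05, 1 was higher and 1 lower, against 10.9% and 6.73% of all genes. Cyb5r2, a cytochrome b5 reductase, stood at -0.38 ± 0.07 (adjusted p = 0.077) and Cyb5b, the outer mitochondrial cytochrome b5, at 0.32 ± 0.13. The changes of Por and Cyb5r3 differed by -0.01 ± 0.10 (exact permutation p = 1). Of 13 measured alcohol dehydrogenases, flavin monooxygenases and related oxidoreductases limma called 0. At an unadjusted p under 0.05, against the same shares of all genes, 2 were higher and 0 lower (Adh6, 0.98 ± 0.32, and Adhfe1, 0.17 ± 0.06).

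**Figure D4:**
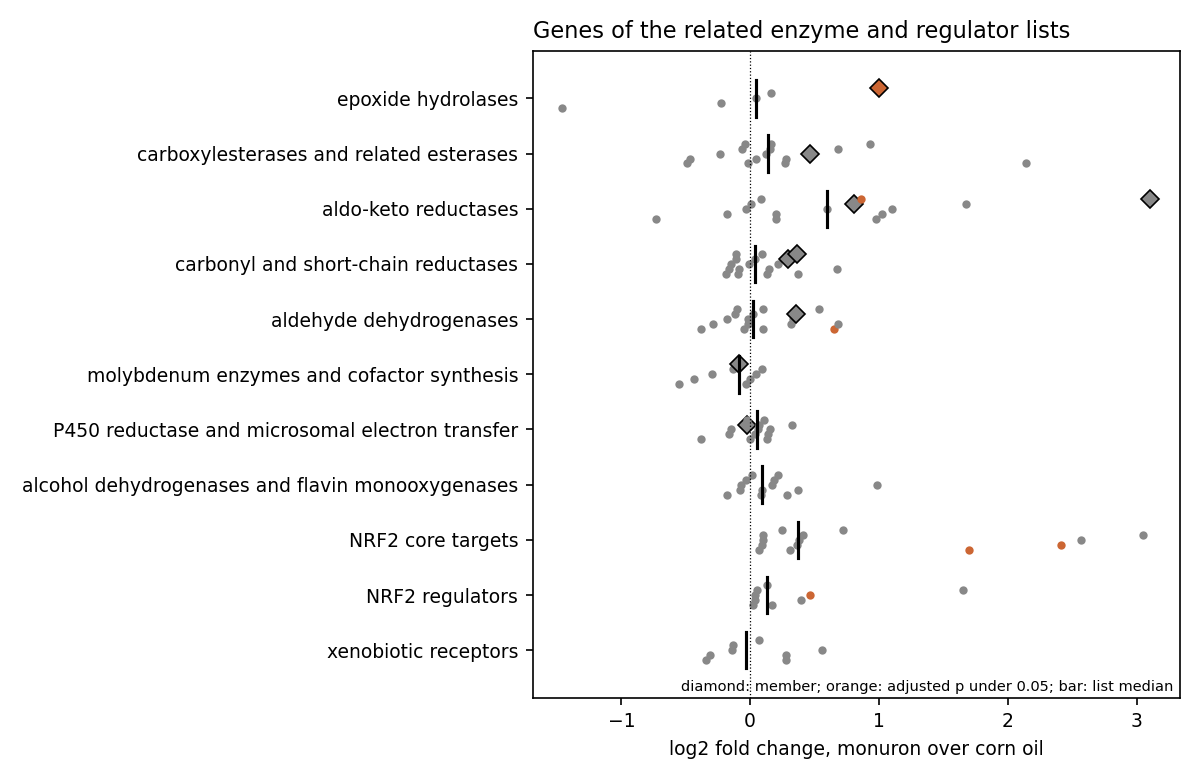
Log2 fold change of monuron over corn oil for the measured genes of each related list, with members as diamonds, genes with an adjusted p under 0.05 in orange and the list median as a bar. The aldo-keto reductases (median 0.60) and NRF2 core targets (0.37) sit to the right of the other lists, and Ephx1 stands alone among the epoxide hydrolases.

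The regulators known for these enzymes were read from the same fit. Of 14 measured NRF2 core targets 2 were called higher and 0 lower, where 0.949% and 0.414% of all genes were. All 14 had a log2 fold change above 0, as did 16727 of all 30229 genes, and the median was 0.37. With spike-in scaling 5 of the 14 lay above 0, with a median of -0.14. The 2 were Nqo1, a quinone reductase (2.41 ± 0.24, adjusted p = 0.0176), and Srxn1, sulfiredoxin (1.70 ± 0.21, adjusted p = 0.0308). Of the single arrays, leaving out any but monuron replicate 2 ended the call of Nqo1 (adjusted p 0.0539 to 0.0875), and leaving out any but corn oil replicate 3 that of Srxn1 (0.0858 to 0.105). Gclm, a subunit of the first enzyme of glutathione synthesis, was detected over background on 0 of 3 corn oil arrays. It passed the detection filter through its monuron arrays alone, so its place among the 14 above 0 carries little weight. Gclm did not pass the threshold of limma (adjusted p = 0.109). Tkt, transketolase, stood at 0.31 ± 0.08 and was not called.

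Transcripts of NRF2 itself (Nfe2l2, 0.02 ± 0.07) and of its inhibitor Keap1 (0.13 ± 0.06) were not called. Of 9 measured NRF2 regulators 1 was called higher and 0 lower (0.949% and 0.414% of all genes), with a median of 0.13. It was Bach1, a repressor at antioxidant response elements (0.47 ± 0.07, adjusted p = 0.0495), a call lost under 20 of the 22 other settings, among them the mean of its probes (0.24 ± 0.07, adjusted p = 0.191) and leaving out any 1 array (adjusted p 0.122 to 0.146). Scaled on spike-in controls it stood at -0.05. Sqstm1, the autophagy receptor p62 that binds Keap1, stood at 0.39 ± 0.10 and Maff, a small Maf partner of NRF2, at 1.65 ± 0.50. Neither was called. Maff was detected over background on 1 of 3 corn oil arrays, so it passed the filter through its monuron arrays alone. Of 8 xenobiotic receptor genes limma called 0. At an unadjusted p under 0.05, 1 was higher and 1 lower, against 10.9% and 6.73% of all genes. They were Nr1i3, the CAR gene (0.55 ± 0.13, adjusted p = 0.112), and Hnf4a, a nuclear receptor of liver and proximal tubule (-0.31 ± 0.09, adjusted p = 0.179), whereas Nr1i2, the PXR gene, stood at -0.14 ± 0.07.

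Ephx1 was also set beside all tested genes with a symbol by the Pearson correlation of log2 levels over the 6 arrays. Both groups enter this measure, so a gene that differs between the groups scores high on that account, and 528 of 12063 genes had a value over 0.9. The 5 nearest were Chchd1 (0.997), Myo19 (0.995), Vom2r12 (0.994), Pir (0.994) and Cs (0.993). Their changes were unlike in size, from 0.10 for Chchd1, a mitochondrial ribosome protein, to 1.33 for Pir, the iron-binding nuclear protein pirin. Myo19, Vom2r12 and Pir were called higher (adjusted p = 0.0193, 0.0138 and 0.00913), and Cs, citrate synthase (0.30, adjusted p = 0.0962), and Chchd1 were not.

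**Figure D5:**
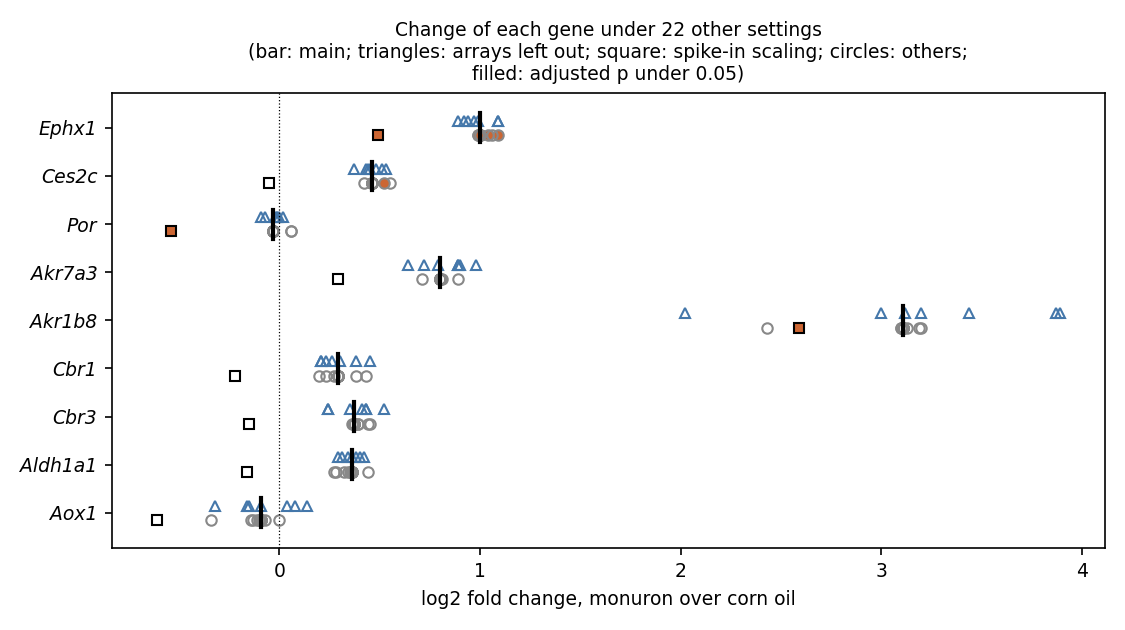
Log2 fold change of each of the 9 genes under the main setting (bar) and under 22 other settings, with triangles for arrays left out, a square for spike-in scaling, circles for the rest and filled marks for an adjusted p under 0.05. Ephx1 and Akr7a3 stay above 0 throughout, from 0.49 to 1.09 and from 0.29 to 0.98, Akr1b8 spreads from 2.02 to 3.89, and Por and Aox1 fall on both sides of 0.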

How the data were processed

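RNA of 6 rats, 3 per group by the labels, was read on 1-colour arrays. Deposited for each array is a scanner table of linear spot intensity, which per the submitters' processing notes the authors made in Feature Extraction 10.7, Agilent's software. The authors' value table, also deposited, gives a ratio that for values of at least 0.1 equals the processed signal over 1 constant per array within 0.0497%. Corn oil columns of it had medians of 0.108, 0.111 and 0.112, and monuron columns 0.111, 0.111 and 0.11.

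For this report the processed signal was divided by the 75th percentile of the array's 61537 non-control probes, without outlier spots, and taken to log2. A probe was kept (41125) when all 3 arrays of 1 or both groups had it well above background, and 28206 probes (45.8%) got a symbol through RefSeq accessions. The brightest kept probe per gene was fitted with limma 3.58.1 in R 4.3.3 (lmFit, eBayes, Benjamini-Hochberg over 30229 genes), and a second fit took every probe. The ± values after log2 fold changes of a gene or probe are standard errors from limma. Those after differences between 2 genes are standard errors from the spread of the arrays within each group, without limma. Simulated arrays of this comparison (30208 genes) had 30.8% of 1.5-fold, 64.4% of 2-fold and 94.8% of 8-fold changes called. The adjustment is more lenient where many genes change at once, so these rates may be too high for the measured arrays. The files' grid names the rat build rn4, so coordinates are given for RefSeq sequences alone.

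The members, lists and alternatives were chosen with earlier results of these data known. Named by rule are all members, the called genes of each list, up to 3 more with the smallest p, and the 5 genes most like Ephx1. Relatives compared in pairs are named too. Akr1b10, Akr1a1, Akr1c12l1, Aldh7a1, Ces1a, Ces1c, Keap1, Nfe2l2 and Pon1 were added after their values were seen.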

Additional observations from a re-analysis of the deposited data

How the results depend on the processing

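With 3 rats per group, precision is set by the number of arrays, and dim genes such as Cbr3 lie nearer the background. Over all genes 287 were called higher and 125 lower, 69.7% of calls higher. The counts were 366 and 61 without scaling (85.7%), 289 and 20541 with spike-in scaling (1.39%), 450 and 317 with normexp and quantile normalization (58.7%), 67 and 19 without a detection filter, and 431 and 276 with trend and robust eBayes. They were 106 and 22 with the hepatocyte score as a covariate. They were 0 and 0 both with the replicate block and without corn oil replicate 3 and monuron replicate 1 (the liver-rich pair), with 4557 and 4192 genes at an unadjusted p under 0.05. With 1 array left out they ranged from 25 to 111 and from 5 to 27.

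Of the members 1 was called higher and 0 lower. With spike-in scaling Por was the 1 member called lower (-0.54, adjusted p = 0.00875 in limma). Under that scaling 20541 of the 30229 genes were called lower, and the median of all genes was -0.49, close to the value of Por. The number of members called higher was 2 with spike-in scaling (Ephx1 and Akr1b8) and 2 with normexp and quantile normalization. It was 0 without a detection filter, with the replicate block, with the hepatocyte covariate, without the liver-rich pair and without each single array in turn, and it stayed at 1 under the other alternatives. The count of member probes called was likewise 0 without a filter, with the replicate block and without each array. Replicate numbers did not pair the rats (correlations of same-numbered deviations -0.08, 0.11 and -0.17). Members with groups apart upward, a count whose alternatives were chosen after seeing the data, numbered 5 (15.5% of all genes), 2 with spike-in scaling (1.13%), where 2 more stood apart downward (72.1%), and 5 to 7 with 1 array left out (19.9% to 22.6%).

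Spike-in scaling turned the log2 fold change of Ces2c to -0.05, Cbr1 to -0.22, Cbr3 to -0.15, Aldh1a1 to -0.16 and Bach1 to -0.05. Por stood at 0.06 without scaling and at 0.06 after normexp, and at -0.09 to 0.02 with 1 array left out, above 0 without corn oil replicate 2. Aox1 stood at 0.08 without the liver-rich pair and at -0.32 to 0.14 with 1 array left out, namely 0.14 without corn oil replicate 3 and 0.04 without monuron replicate 3. The difference between Por and Cyb5r3 was 0.06 with the mean of each gene's probes and -0.05 to 0.08 with 1 array left out. The causes were not tested. No slide held both groups, so a slide block could not be fitted.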
